A study of Mus musculus with 6 samples.

Results

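The 10 genes described here encode the ADF/cofilin proteins, which sever and depolymerise actin filaments, together with the proteins that assist them and switch them on and off. They were chosen by gene symbol: Cfl1, Dstn and Cfl2 (the ADF/cofilins), Wdr1 (their cofactor), Limk1 and Limk2 (the inhibiting kinases), and Ssh1, Ssh2, Ssh3 and Pdxp (the activating phosphatases). All 10 symbols matched 1 gene each among the 27179 genes of the table. Poly(A) RNA was sequenced from the cerebral cortex of C57BL/6N mouse embryos at E18.5, shortly before birth. The CAP1-KO group (3 libraries: FCRE3, FCRE4 and FCRE5) had the genotype Cap1flx/flx with Nestin-CRE. The Control group (3 libraries: FF1, FF2 and FF4) had the genotype Cap1 flx/flx and no Cre. Both groups therefore carried the flanked Cap1 alleles. The Nestin promoter is active in neural progenitors, so recombination is expected in neurons and glia and not in every cell of the dissected tissue. There was no group with Cre on unflanked alleles, so loss of Cap1 and presence of the transgene cannot be told apart.

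An actin filament loses its older subunits through ADF/cofilins, which bind the filament side and break it. WDR1, also called AIP1, binds filaments decorated with cofilin and speeds their disassembly. CAP1, the protein whose gene was targeted, works at the same step: it helps cofilin take filaments apart and recharges the released monomers. LIM kinases inactivate ADF/cofilins by phosphorylating a serine near the amino end, and the slingshot phosphatases (Ssh genes) and chronophin (Pdxp) remove that phosphate. In developing cortex these proteins are known for their roles in growth cones, neurite formation and neuronal migration. The amount of unpolymerised actin also controls the transcription factor SRF through its MRTF coactivators, which the series title names.

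The serine codon on which the kinases and phosphatases act is the third codon of each ADF/cofilin gene. The first 45 coding bases are shown, from GENCODE transcripts on GRCm38, to place that shared site beside the differences between the paralogs, with the serine codon in capitals.
Cfl1: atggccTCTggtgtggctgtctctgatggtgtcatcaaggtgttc
Dstn: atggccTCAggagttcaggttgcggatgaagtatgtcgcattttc
Cfl2: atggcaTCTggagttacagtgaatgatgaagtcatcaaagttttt
Over the whole coding sequence, Cfl1 and Cfl2 were identical at 71.5% of aligned bases, Cfl1 and Dstn at 68.7%, and Cfl2 and Dstn at 67.7%. Processed pseudogenes lay closer to their parent genes than the paralogs do to each other: Gm6180 matched the Cfl1 coding sequence at 98.8% identity over 498 bases, and Gm7495 matched Dstn at 91.4% over 431 bases. The pseudogenes were not analysed here, and how reads shared with them were counted is not given in the sources used here. Cfl1 also overlaps Snx32 on the opposite strand. Snx32 had 7368 reads over the CAP1-KO libraries and 6754 over the Control libraries. These read sums are not scaled to depth, so they do not show a difference in level. On the CPM scale described below, 1 CPM was 34.3 to 37.3 reads in the CAP1-KO libraries and 31.2 to 33.6 in the Control libraries. Pdxp shares exon sequence with Gm49510 on its own strand, so its counts are uncertain in the same way.

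Recovered depth was 33509504 to 36302598 reads per CAP1-KO library and 32443864 to 35229159 per Control library. Every member was well covered: Ssh1, the least abundant, had 589 to 705 reads per library, and Cfl1 had 27698 to 49778. Levels are given in CPM, reads scaled to a common library size with the authors' own scaling. Cap1, the targeted gene, measured 86.6, 85.9 and 82.9 CPM in FCRE3, FCRE4 and FCRE5 of the CAP1-KO group. It measured 194, 193 and 166 CPM in FF1, FF2 and FF4 of the Control group, so it was lower in every library labelled as knockout. The deleted exons are not given in the labels. All 8 listed markers of cortical neurons were present, with summed levels of 3619 to 3834 CPM in CAP1-KO and 3790 to 5066 CPM in Control. The lowest Control sum was that of FF4, which lay inside the CAP1-KO range. Of the 8 neuron markers, 0 had a positive fold change, and their median log2 fold change was -0.34. In the limma fit described below, 0 of the 8 were called. At an unadjusted p under 0.05, 4 of them were lower, where 15.3% of all genes tested were. Xist measured 2398 to 2653 CPM in CAP1-KO, but among the Control libraries 0.58 CPM in FF1, 2296 CPM in FF2 and 2.05 CPM in FF4, so embryo sex was not balanced.

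Genes for both major severing proteins and for their cofactor were higher in CAP1-KO: Wdr1 by 2.07-fold, Dstn by 1.70-fold and Cfl1 by 1.48-fold in group means. Cfl2, the paralog, did not pass the test, nor did any of the 6 kinase and phosphatase genes. Significance is from limma on log2(CPM + 1), with Benjamini-Hochberg adjustment over the 13885 genes that averaged at least 1 CPM, and a threshold of 0.05. All 10 members passed that expression filter. Of the 10, 3 were called higher, where the background over all genes tested was 0.562%, and 0 were called lower, where it was 0.403%. At an unadjusted p under 0.05, 4 members were higher, where 7.74% of all genes tested were, and 3 were lower, where 15.3% were. On recovered reads, limma-voom also called 3 higher and 0 lower. The median log2 fold change of the 10 was -0.02, beside -0.01 for all genes tested. The authors' deposited table lists the same 3 genes below an FDR of 0.05, where 0.813% of its genes lie in either direction and 0.401% on the higher side. In the authors' deposited table the FDR is 1.36e-05 for Wdr1, 8.14e-05 for Dstn and 0.00298 for Cfl1, and the lowest FDR of the other 7 members is 0.112, for Pdxp.

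**Figure D1:**
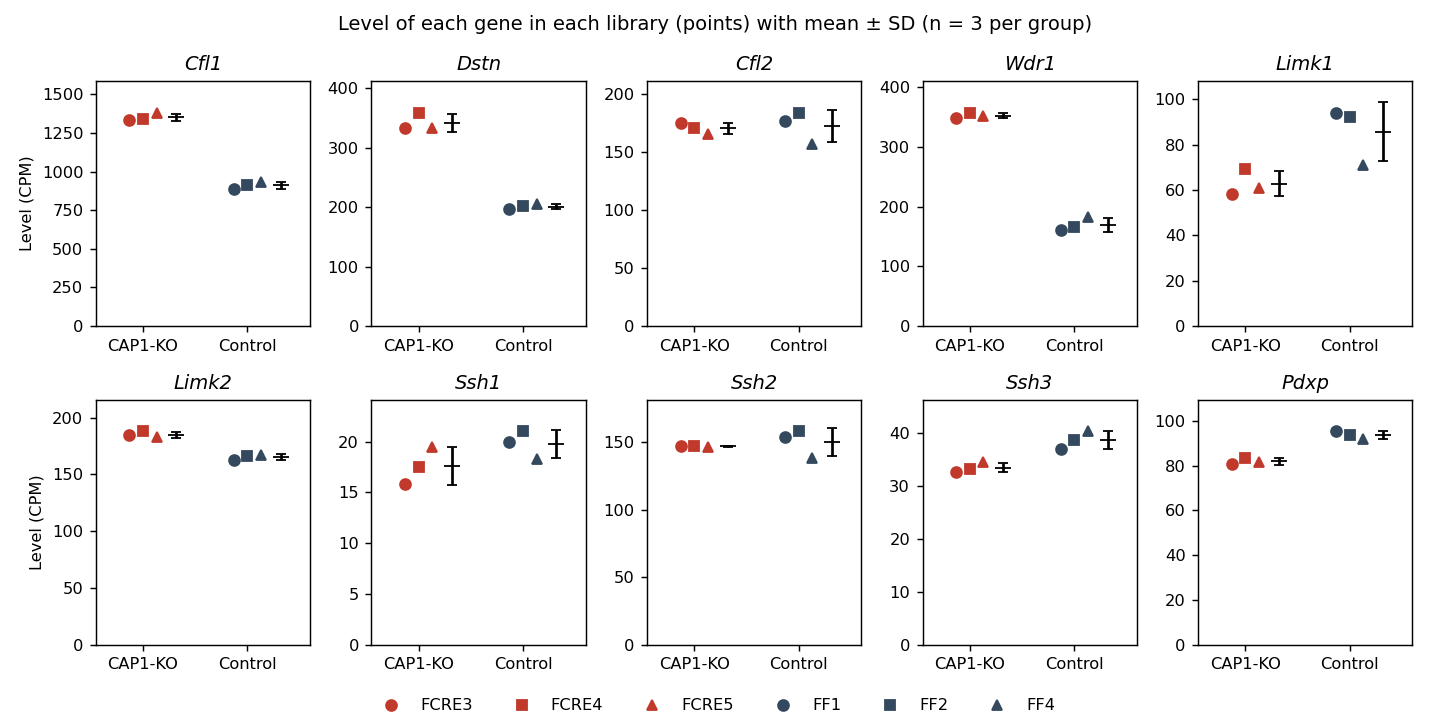
Level of each of the 10 genes (y axis, CPM, from 0) in each of the 3 CAP1-KO and 3 Control libraries (points), with the mean and SD of each group (n = 3). The groups are far apart for Cfl1, Dstn and Wdr1. For Limk1 the lowest Control library, FF4 at 71.0 CPM, lies close to the highest CAP1-KO library, FCRE4 at 69.1 CPM.

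Wdr1 had the largest change of the 10. This gene (gene number 22388, GRCm38 chromosome 5, 38526806 to 38562922, minus strand) measured 349, 357 and 351 CPM in the CAP1-KO libraries FCRE3, FCRE4 and FCRE5. It measured 161, 165 and 183 CPM in the Control libraries FF1, FF2 and FF4. The CAP1-KO libraries lay within a narrow band, and the highest Control library, FF4, was far below it. The means were 352 ± 4.08 CPM in CAP1-KO and 169.7 ± 11.8 CPM in Control (SD, n = 3 each), a 2.07-fold ratio. The log2 fold change was 1.05 (SE 0.06, limma adjusted p = 0.000164), and by p-value Wdr1 stood at place 12 among all genes tested, ahead of Cap1 at place 16.

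Dstn, which encodes ADF (destrin), changed the most among the 3 ADF/cofilins. Dstn (gene number 56431, GRCm38 chromosome 2, 143915331 to 143943324, plus strand) measured 334, 358 and 333 CPM in FCRE3, FCRE4 and FCRE5 of the CAP1-KO group. It measured 197, 201 and 205 CPM in FF1, FF2 and FF4 of the Control group. The groups were wide apart and the Control libraries nearly equal. The log2 fold change was 0.76 (SE 0.05, limma adjusted p = 0.000381), with a 95% interval of 1.57-fold to 1.84-fold.

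Cfl1, the non-muscle cofilin and the most abundant of the 3, rose by a smaller factor. Cfl1 (gene number 12631, GRCm38 chromosome 19, 5490455 to 5494031, plus strand) measured 1334, 1338 and 1379 CPM in the CAP1-KO libraries FCRE3, FCRE4 and FCRE5. It measured 888, 912 and 931 CPM in the Control libraries FF1, FF2 and FF4. Every CAP1-KO library was above every Control library by a margin larger than the spread in either group. The log2 fold change was 0.57 (SE 0.06, limma adjusted p = 0.00485), with a 95% interval of 1.35-fold to 1.63-fold. Its call was lost without FCRE5 (adjusted p = 0.0649), without FF1 (adjusted p = 0.0535) and with the Xist level as a covariate (adjusted p = 0.111). The fold change itself stayed between 0.55 and 0.63 in all 13 alternatives. Wdr1 and Dstn kept their calls in all 13.

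Cfl2, the cofilin known mainly from muscle, showed no detectable change. Cfl2 (gene number 12632, GRCm38 chromosome 12, 54858815 to 54862877, minus strand) measured 175, 171 and 165 CPM in the CAP1-KO libraries FCRE3, FCRE4 and FCRE5, beside 177, 183 and 157 CPM in the Control libraries FF1, FF2 and FF4. The Control libraries held both the highest and the lowest value. The log2 fold change was -0.01 (SE 0.07, limma adjusted p = 0.914), and its 95% interval ran from 0.89-fold to 1.10-fold. That interval does not reach the lower bounds of Cfl1 or Dstn.

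**Figure D2:**
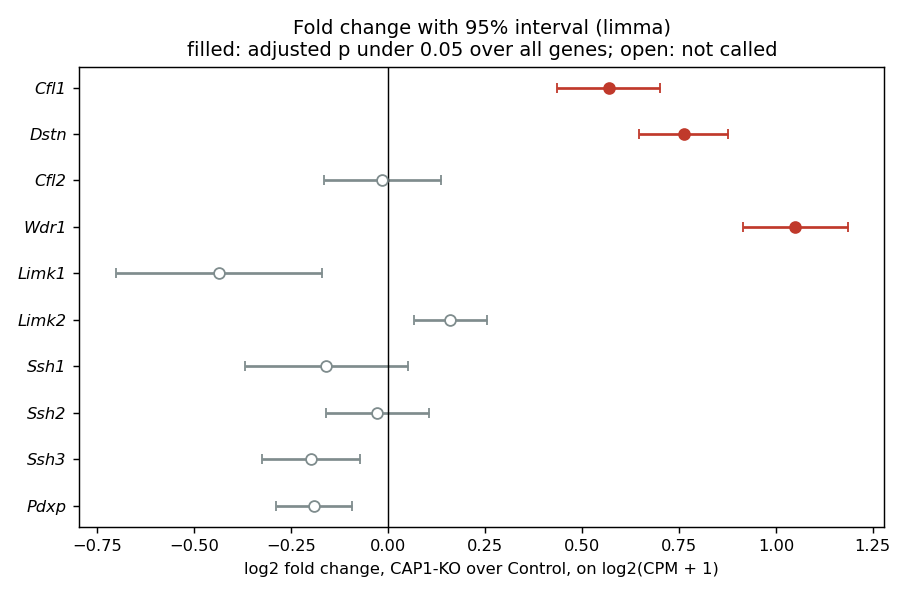
Log2 fold change of each gene, CAP1-KO over Control, on the log2(CPM + 1) scale (x axis), with the 95% interval from limma (bars). Filled points passed an adjusted p of 0.05 over all genes. Wdr1 (1.05), Dstn (0.76) and Cfl1 (0.57) are filled, and the interval of Cfl2 spans 0.

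The ratios of the paralogs within a library were compared to ask whether they responded unequally. The log2 ratio of Dstn to Cfl2 averaged 1.01 ± 0.07 in CAP1-KO and 0.23 ± 0.14 in Control, a difference of 0.78. The log2 ratio of Cfl1 to Cfl2 averaged 2.99 ± 0.07 in CAP1-KO and 2.41 ± 0.14 in Control, a difference of 0.58. The smallest shift was that of Dstn to Cfl1, at -1.98 ± 0.08 in CAP1-KO and -2.18 ± 0.0042 in Control (SD, n = 3 each), a difference of 0.20. The groups did not overlap for any of these 3 ratios. Each gave p = 0.1 in a two-sided exact permutation test, before and after adjustment over the 3 pairs, and 0.1 is the smallest p that 3 against 3 libraries can give.

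Per length, Cfl1 dominated the pool, and the rise came from Cfl1 and Dstn. With CPM divided by GENCODE exon length, the 3 ADF/cofilins summed to 776 ± 7.75 CPM per kb in CAP1-KO and 527 ± 8.39 CPM per kb in Control (SD, n = 3 each), a ratio of 1.47. Of that difference of 249 CPM per kb, Cfl1 made up 70.7% and Dstn 29.6%, while Cfl2 was slightly lower. The share of Cfl1 in the pool was 69.5% ± 0.997 in CAP1-KO and 69.0% ± 0.78 in Control. The share of Dstn was 23.0% ± 0.90 in CAP1-KO and 19.9% ± 0.17 in Control. The share of Cfl2 was 7.45% ± 0.29 in CAP1-KO and 11.1% ± 0.96 in Control. The level of Wdr1 per kb of exon equalled 14.7% ± 0.12 of the pool in CAP1-KO and 10.4% ± 0.62 in Control, without overlap between the groups.

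**Figure D3:**
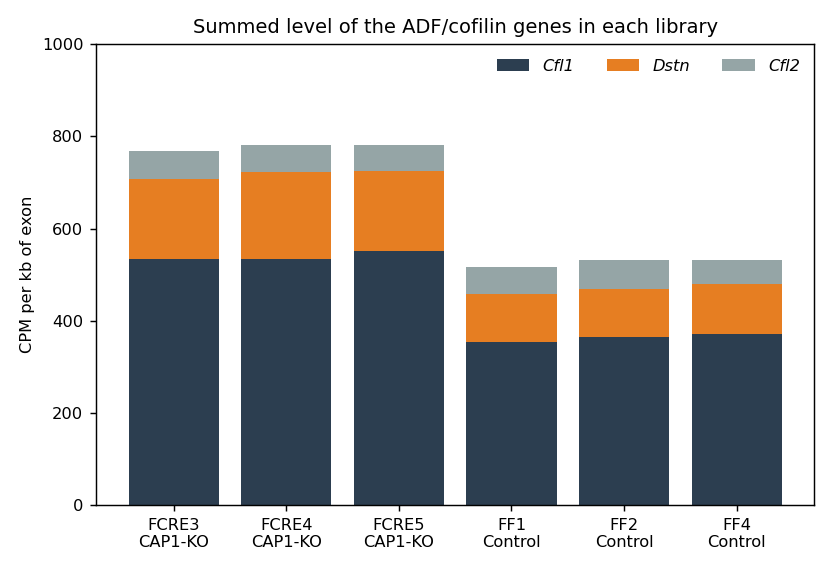
Summed level of the ADF/cofilin genes (y axis, CPM per kb of exon) in each library, split into Cfl1, Dstn and Cfl2 (stacked bars). The 3 CAP1-KO libraries sum to between 767 and 781 and the 3 Control libraries to between 518 and 533, while the Cfl2 segment is alike in all 6.

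Across the 10 genes, levels per kb of exon spanned a wide range. In CAP1-KO the order from high to low was Cfl1, Dstn, Wdr1, Cfl2, Limk2, Pdxp, Limk1, Ssh2, Ssh3 and Ssh1, where Cfl1 averaged 539.5 CPM per kb and Ssh1 2.07 CPM per kb. In Control the same ends held, at 364 CPM per kb for Cfl1 and 2.32 CPM per kb for Ssh1, but Cfl2 stood before Wdr1 and Pdxp before Limk2. Neighbours in these orders did not overlap between libraries, except Cfl2 (58.6 ± 4.71 CPM per kb) and Wdr1 (54.9 ± 3.84 CPM per kb) in Control.

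The LIM kinases showed opposite directions, and neither passed the test. Limk1, the kinase known best from neurons and dendritic spines, measured 58.2, 69.1 and 61.0 CPM in the CAP1-KO libraries FCRE3, FCRE4 and FCRE5, beside 93.9, 92.4 and 71.0 CPM in the Control libraries FF1, FF2 and FF4. The groups just missed overlapping, because FF4 was low. The log2 fold change of Limk1 was -0.44 (SE 0.11, limma adjusted p = 0.105), the most negative of the 10 genes. FF4 was also the Control library with the lowest sum of cortical neuron markers (3790 CPM, against 4983 CPM in FF1 and 5066 CPM in FF2), and the part of this in the Limk1 values was not tested. In bulk tissue, fewer cells of a type and less RNA per cell cannot be told apart.

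Limk2, the more widely expressed LIM kinase, measured 185, 188 and 183 CPM in the CAP1-KO libraries FCRE3, FCRE4 and FCRE5, beside 163, 167 and 167 CPM in the Control libraries FF1, FF2 and FF4. The groups were apart, but the step was small. The log2 fold change was 0.16 (SE 0.04, limma adjusted p = 0.1001). The summed level of both kinases was 64.1 ± 2.19 CPM per kb in CAP1-KO and 65.8 ± 3.31 CPM per kb in Control. Limk2 made up 70.0% to 73.2% of that sum in CAP1-KO and 59.8% to 67.0% in Control.

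The 4 phosphatase genes had negative fold changes, all of them small and none past the threshold. Pdxp, which encodes chronophin, measured 80.6, 83.3 and 81.6 CPM in the CAP1-KO libraries FCRE3, FCRE4 and FCRE5, beside 95.2, 93.8 and 91.7 CPM in the Control libraries FF1, FF2 and FF4. Its groups were apart, with a log2 fold change of -0.19 (SE 0.04, limma adjusted p = 0.0819). Ssh3 measured 32.6, 33.2 and 34.4 CPM in the same CAP1-KO libraries, beside 36.8, 38.6 and 40.2 CPM in the Control libraries. Its groups were also apart, at a log2 fold change of -0.20 (SE 0.05, limma adjusted p = 0.110).

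Ssh1 and Ssh2, the slingshot members best known as cofilin phosphatases, overlapped between groups. Ssh1 measured 15.8, 17.5 and 19.5 CPM in the same CAP1-KO libraries, beside 19.9, 20.99 and 18.3 CPM in the Control libraries (log2 fold change -0.16, limma adjusted p = 0.330). Ssh2 measured 147, 147 and 147 CPM in the same CAP1-KO libraries, beside 154, 158 and 139 CPM in the Control libraries (log2 fold change -0.03, limma adjusted p = 0.802). For Ssh2 the spread was in the Control group alone, and its 95% interval ran from 0.89-fold to 1.07-fold. The phosphatases summed to 71.1 ± 0.95 CPM per kb in CAP1-KO and 79.5 ± 1.55 CPM per kb in Control (SD, n = 3 each).

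In all, 7 of the 10 genes had groups that did not overlap, where 25.6% of all genes tested had such groups. Of these, 4 were higher, where 11.1% of all genes tested were, and 3 were lower, where 14.6% were. Without FF4, Limk1 (log2 fold change -0.57, limma adjusted p = 0.000757), Limk2 (0.17, adjusted p = 0.0127) and Pdxp (-0.21, adjusted p = 0.00733) also passed. In that fit 28.2% of all genes passed, 9.36% as higher and 18.9% as lower, so these calls are not set apart from the background.

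**Figure D4:**
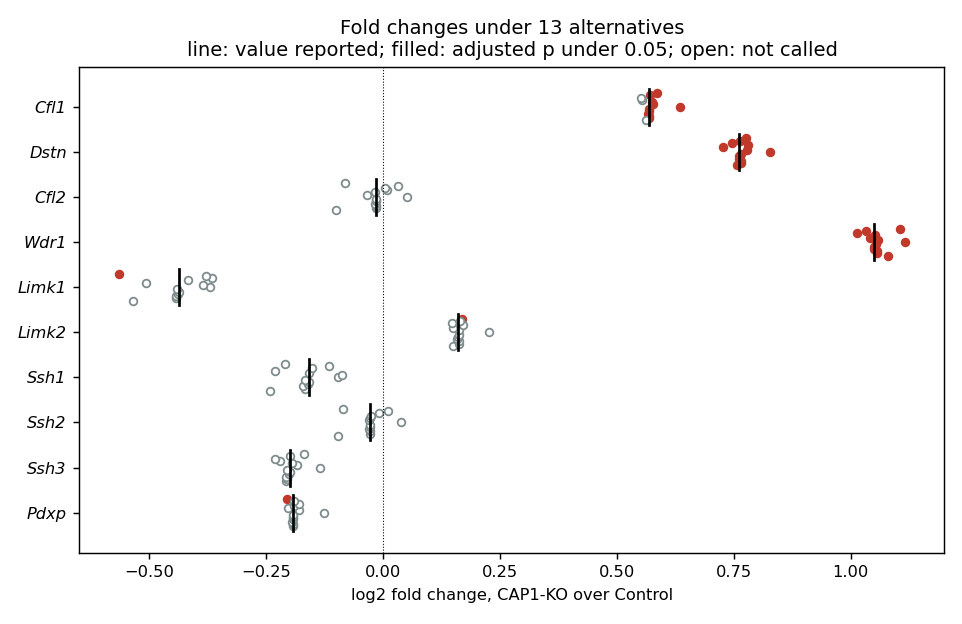
Log2 fold change of each gene, CAP1-KO over Control (x axis), under each of 13 alternative settings (points, filled where the adjusted p was under 0.05), with the reported value as a line. Points of Wdr1 and Dstn are all filled. Cfl1 keeps its value with some open points, and Limk1 spreads the most, between -0.57 and -0.37.

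Among filament partners of cofilin, 3 tropomyosin genes rose and Cap1 fell. Of 13 listed genes 3 were higher, where 0.562% of all genes tested were, and 1 was lower, where 0.403% were (limma). The lower gene was Cap1, the one targeted in CAP1-KO. The median log2 fold change of the 13 was -0.02. Tpm2, a tropomyosin (a protein that lies along the filament and can shield it from cofilin), measured 17.6 ± 1.90 CPM in CAP1-KO and 2.68 ± 0.14 CPM in Control (log2 fold change 2.33, limma adjusted p = 7.09e-05). Tpm4 measured 184 ± 6.72 CPM in CAP1-KO and 104 ± 2.39 CPM in Control (0.81, limma adjusted p = 0.000203). Tpm1 measured 103 ± 4.41 CPM in CAP1-KO and 80.4 ± 4.11 CPM in Control (0.36, limma adjusted p = 0.0335). Tpm3 did not pass (-0.06, limma adjusted p = 0.545), nor did any coronin, cortactin (Cttn) or the paralog Cap2. Coronins help recruit cofilin to older filaments. Their log2 fold changes ran from -0.34 for Coro2a (limma adjusted p = 0.126) to 0.19 for Coro1c (limma adjusted p = 0.139).

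The genes upstream of the switch and the other members of the protein family were not called. Of 19 GTPases and kinases that act on LIM kinase or cofilin, 0 were called (limma and limma-voom), with 1 higher and 5 lower at an unadjusted p under 0.05 (7.74% and 15.3% of all genes tested) and a median of -0.03. The highest in mean CPM over the 6 libraries were Cdc42, a small GTPase (482 ± 6.13 CPM in CAP1-KO and 457 ± 19.3 CPM in Control), and Pak3, a kinase that activates LIM kinase (316 ± 14.7 CPM in CAP1-KO and 270.5 ± 16.8 CPM in Control). Of 10 genes for 14-3-3 proteins, which hold phosphorylated cofilin and slingshot, and for calcineurin, which activates slingshot, 0 were called (limma and limma-voom), with 0 higher and 3 lower at an unadjusted p under 0.05, against the same 7.74% and 15.3%. Their median was -0.10, and the highest in mean CPM over the 6 libraries were Ywhag (1218 ± 77.7 CPM in CAP1-KO and 1391 ± 71.1 CPM in Control) and Ywhae (1205 ± 9.34 CPM in CAP1-KO and 1250 ± 59.3 CPM in Control). Of 7 other genes with an ADF homology domain, the fold of cofilin itself, 6 were tested and 0 called (limma and limma-voom), with 0 at an unadjusted p under 0.05 and a median of -0.07. The highest in mean CPM over the 6 libraries were Dbn1, drebrin (857 ± 22.2 CPM in CAP1-KO and 949.8 ± 87.4 CPM in Control), and Gmfb (230 ± 8.28 CPM in CAP1-KO and 215 ± 16.7 CPM in Control).

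**Figure D5:**
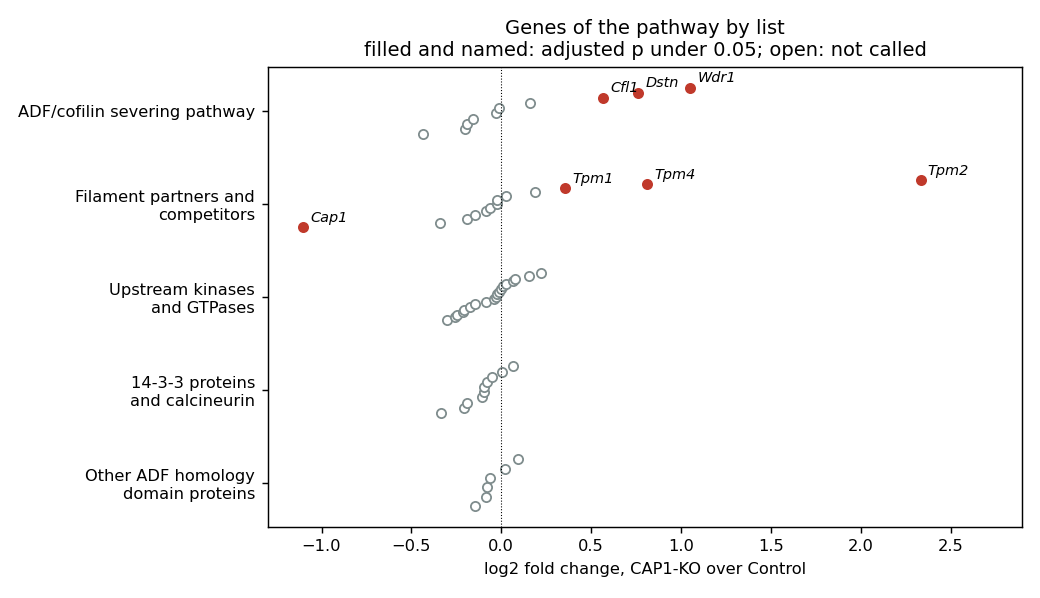
Log2 fold change, CAP1-KO over Control (x axis), of the 10 genes and of 4 lists of related genes (rows). Filled and named points passed an adjusted p of 0.05 over all genes. Called genes are Wdr1, Dstn and Cfl1 in the top row and Tpm1, Tpm2, Tpm4 and Cap1 among filament partners.

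Markers of cells other than neural cells moved between the groups as well. Of 12 microglia and macrophage markers, all 12 had positive fold changes, with summed levels of 99.97 to 131 CPM in CAP1-KO and 67.5 to 86.6 CPM in Control. Of 10 meningeal fibroblast markers 6 were tested and 0 called (limma and limma-voom). At an unadjusted p under 0.05, 4 of them were higher, where 7.74% of all genes tested were. The CAP1-KO libraries FCRE3, FCRE4 and FCRE5 had fibroblast marker sums of 18.8, 98.8 and 88.7 CPM, beside 17.1 to 18.2 CPM in Control. Of 6 choroid plexus markers 3 were tested and Ttr was called higher (limma), where 0.562% of all genes tested were. The 6 choroid plexus markers summed to 51.4 to 112 CPM in CAP1-KO and 0.98 to 3.05 CPM in Control. Most of the CAP1-KO sum was Ttr, at 90.9, 104 and 47.0 CPM in FCRE3, FCRE4 and FCRE5. Aqp1 and Clic6 averaged 2.98 and 3.10 CPM in CAP1-KO, beside 0.95 and 0.65 CPM in Control, and were not called. Folr1, Kl and Kcnj13 were too low to be tested. Kl was not higher in CAP1-KO (0.027 CPM, beside 0.030 CPM in Control). No marker in these lists was at 0 in all 6 libraries. Endothelial markers summed to 164 to 182 CPM in CAP1-KO and 204 to 228 CPM in Control. Of the 10 tested, Kdr and Flt1 were called lower (limma), where 0.403% of all genes tested were. Mural cell markers summed to 163 to 187 CPM in CAP1-KO and 166 to 178 CPM in Control. Of the 9 tested, Myh11 was called higher (limma), beside the same 0.562% of all genes tested. The part of neuronal, microglial, meningeal, choroid plexus and vascular cells in the member values was not tested.

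The promoters of the 3 raised genes were searched for the CArG box, the site that SRF binds. RefSeq windows (GRCm38.p6) of 250 bases before to 50 after a start site were at hand for all 10 genes, 15 windows in all. None of the 15 held the exact motif on either strand, which 1.63% of all 32851 windows hold. With 1 mismatch allowed, 6 of the 15 windows held a match, from 5 of the 10 genes, where 21.1% of all windows hold one. Wdr1, Dstn and Cfl1 each had 1 such match upstream of the start site. The other windows with a match were those of Ssh3, which overlap and hold 2 matches each, and 1 of the 3 Limk2 windows. Positions from the start site are given for the raised genes only. No match at this level lay in the windows of Cfl2, Limk1, Pdxp, Ssh1 or Ssh2. The stretches of 60 bases around the matches of the raised genes are shown 5′ to 3′ on the gene's strand, with the match to 9 of 10 positions in capitals.
Wdr1, chr5:38561718-38561777, minus strand: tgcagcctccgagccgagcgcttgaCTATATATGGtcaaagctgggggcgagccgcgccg
Dstn, chr2:143915200-143915259, plus strand: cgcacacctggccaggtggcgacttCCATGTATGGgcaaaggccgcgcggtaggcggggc
Cfl1, chr19:5490265-5490324, plus strand: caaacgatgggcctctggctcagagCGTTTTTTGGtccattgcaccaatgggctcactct
The matches began 53 bases upstream of the window's start site in Wdr1, 106 bases in Dstn and 165 bases in Cfl1. The Wdr1 window, 38561650 to 38561949, lies inside the gene span given above, whose 5′ end on the minus strand is 38562922. Bases before that 5′ end were not searched. Dstn had a further match downstream of its start. A match describes letters in the window and says nothing of binding in this tissue.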

How the data were processed

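RNA was measured in 3 CAP1-KO and 3 Control libraries. The tools named are STAR and edgeR, and the builds mm10 and GRCm38, per the submitters' processing notes; how reads were counted, on which annotation and with which filters is not given in the sources used here. The authors deposited, per the file headers, normalized counts on a log2 scale for each library. They also deposited a p-value, an FDR, an F score and a log2 fold change for each gene. Library columns were assigned to groups by genotype in their names; their numbers match no replicate number of the labels. The labels call the samples biological replicates and give no litter or run.

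The antilog of the deposited log2 values shared an offset of 0.0584 CPM, which was subtracted. Values were then whole multiples of 1 step per library (100% within 0.01 of a whole read), which gave reads and depth; 1 CPM corresponded to 31.2 to 37.3 reads. No pair of replicates agreed within sampling noise. The chi-square per gene was 5.54 to 10.8 for CAP1-KO pairs and 8.71 for FF1 with FF2. It was higher for the pairs with FF4, at 23.9 with FF1 and 31.5 with FF2.

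Since the table holds log2 values, limma 3.58.1 (R 4.3.3, with trend) was fitted to log2(CPM + 1), all 6 libraries, no covariate, for the 13885 genes averaging 1 CPM or more. This scale understates the change of low genes. Exact permutation tests of 3 against 3 cannot go below 0.1. Exon and coding lengths are from GENCODE M21, coordinates and promoters from RefSeq GRCm38.p6. Sequences of proteins were not used here. Named are all 10 members, Cap1, the called genes of each list or else its 2 highest in mean CPM, and the 5 nearest profiles of each called member; Tpm3, Coro1c and the other genes were added after their values were seen. The members and lists were chosen with earlier results of these data known. Alternatives were other scalings, the deposited values, limma-voom, a pseudocount of 0.1, no filter, an Xist covariate and leaving out each library. The result of a marker gene is not reported here.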

Additional observations from a re-analysis of the deposited data

How the results depend on the processing

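Each fold change was recomputed under 13 alternatives. Wdr1 (1.01 to 1.12) and Dstn (0.73 to 0.83) kept direction and call in all 13. Cfl1 kept its direction (0.55 to 0.63) and lost its call with the Xist covariate (0.56) and, among fits leaving out 1 library (0.55 to 0.59), without FCRE5 and without FF1. Limk1 (-0.57 to -0.37), Limk2 (0.15 to 0.23) and Pdxp (-0.21 to -0.13) kept direction in all 13 and gained a call without FF4 only. On leaving out 1 library, Limk2 ran from 0.15 to 0.17 and Pdxp from -0.21 to -0.18. With scaling to total reads, Limk2 was 0.23 and Pdxp was -0.13. Cfl2 and Ssh2, never called, were positive with scaling to total reads (0.051 and 0.0377), and on leaving out 1 library ran from -0.081 to 0.0318 (Cfl2) and from -0.0848 to 0.0097 (Ssh2): Cfl2 was 0.0075 without FCRE5, 0.0048 without FF1 and 0.0318 without FF2, and Ssh2 was 0.0097 without FF2. Ssh1 (-0.24 to -0.09) and Ssh3 (-0.23 to -0.14) stayed negative and not called in all 13. Over all genes, 78 rose and 56 fell; leaving out 1 library gave 33 to 1299 higher (1299 without FF4) and 3 to 2623 lower (2623 without FF4), the Xist covariate 23 higher and 3 lower, and no filter on low values 20 lower. The cause was not tested. With coding in place of exon length, Cfl1, Dstn and Cfl2 made up 72.4%, 18.4% and 9.12% of the ADF/cofilin pool in CAP1-KO. In Control they made up 70.9%, 15.7% and 13.4%. The level of Wdr1 per kb then equalled only 5.17% of the pool in CAP1-KO and 3.62% in Control, and Cfl2 stood before Wdr1 in both groups. The coding length came from GENCODE and was chosen after seeing the data. It stood in place of the planned RefSeq coding length, which was not run. No paired analysis was possible because the library columns carry numbers that match no replicate number of the labels. Counting error is small at 589 reads or more per member and library; 3 libraries per group limit precision.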

Other observations

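The genes whose profiles over the 6 libraries lay nearest to the called members were found by the root mean square distance between log2(CPM + 1) values, each centred on its own mean. Nearest to Wdr1 were Prkab2, Rsu1, Nptx2, Flna and Myo1e, at distances of 0.070 to 0.10 log2 units. Flna, which encodes the filament crosslinker filamin A, averaged 1581 CPM in CAP1-KO and 695 CPM in Control, and Rsu1, a protein of focal adhesions, averaged 42.0 CPM in CAP1-KO and 20.3 CPM in Control. Nearest to Dstn were Hsd17b11, Fcgr3, Colgalt2, Mrvi1 and Tpm4, at 0.044 to 0.071. Nearest to Cfl1 were Ubald1, Cped1, Smoc2, Efemp2 and Arpc5, at 0.028 to 0.063. Arpc5, a subunit of the Arp2/3 complex that starts branched filaments, averaged 321 CPM in CAP1-KO and 208 CPM in Control. Some of these neighbours were low. In CAP1-KO and Control, Cped1 averaged 1.42 and 0.70 CPM, Smoc2 2.72 and 1.53 CPM, Fcgr3 3.37 and 1.44 CPM, and Mrvi1 3.29 and 1.48 CPM. At such levels log2(CPM + 1) understates the change, so nearness does not mean an equal fold change. Cped1 and Smoc2 were not called (limma adjusted p = 0.0833 and 0.0545). All distances are mainly set by the step between the groups and are given as a description, with no test.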
